A study of Mus musculus with 8 samples.

Results

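The urea cycle and glutamine genes are a set of 10 mouse genes, Cps1, Otc, Ass1, Asl, Arg1, Nags, Slc25a15, Gls2, Glul and Oat, that carry most of the enzymes by which the liver disposes of ammonia. They were listed by gene name, with earlier results of these data known. All 10 were found through the GRCm38 annotation among the 18095 genes of the count table. The livers came from 12-week-old male mice, 4 labelled WT and 4 labelled Inpp4b-/-. The latter descend from a knockout line of the lipid phosphatase INPP4B that was obtained from another laboratory. According to the methods of the study, all 8 animals were kept on a high-fat diet (HFD) that their dams had also received, so that HFD is shared by both genotypes. The labels give the strain background as C57BL/6, whereas the methods describe breeding into FVB. RNA came from whole liver, depleted of ribosomal RNA, and each library is 1 animal.

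Ammonia set free by amino acid breakdown is turned into urea by hepatocytes around the portal vein, where blood enters the liver lobule. Carbamoyl phosphate is made in the mitochondrion, joined to ornithine, and passed through citrulline, argininosuccinate and arginine to urea. Ammonia that escapes is joined to glutamate by a thin layer of hepatocytes around the central vein, where blood leaves, and periportal glutaminase releases it again from glutamine. Cps1, Otc, Ass1, Asl, Arg1, Nags, Slc25a15 and Gls2 are therefore counted here as 8 periportal members, and Glul and Oat as 2 pericentral members. Whole liver mixes both zones, so that fewer cells of a zone and less RNA per cell cannot be told apart in these values.

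Libraries held 25893430 to 31427831 counts in WT and 32738435 to 36662531 in Inpp4b-/-, so depth differed between the genotypes without overlap. Inpp4b itself had 5 to 20 counts in the libraries labelled WT and 9 to 33 in those labelled Inpp4b-/-, a log2 difference in counts scaled to 1000000 per library (CPM) of 0.40 (exact permutation p = 0.457, two-sided, n = 4 and 4), and 0.05 without Inpp4b-/- replicate 1. The gene count therefore did not separate the labels. The table counts whole genes, so reads from exons outside a deletion would still be counted, and directions below are those of the labels. The summed level of 7 hepatocyte markers ran from 78300 to 86100 CPM in WT and from 83300 to 103000 in Inpp4b-/-. Most of that sum was Alb, at 52520 to 55900 CPM in WT and 56220 to 70750 in Inpp4b-/-. Of the 7 markers, 4 had a log2 difference above 0 and 3 below. Markers of Kupffer, endothelial, stellate, bile duct and lymphoid cells each summed to 197 CPM or less in every library.

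The region from 250 bases before to 50 bases after the transcription start was found in the RefSeq promoter table (GRCm38.p6) for 6 of the 10 members. A periportal pair (Otc and Ass1) and the pericentral pair (Glul and Oat) are shown to set the sequences of both zones side by side, each read along the strand of its gene. Capitals mark matches on either strand to 7 short motifs, which are the TATA box TATAAA, the CCAAT box CCAAT, the GC box GGGCGG, the C/EBP palindrome TTGCNNAA, the TCF/LEF core CTTTGA, the glucocorticoid half-site TGTTCT and the CRE half-site TGACG.
Otc (chrX:10252055-10252354, + strand): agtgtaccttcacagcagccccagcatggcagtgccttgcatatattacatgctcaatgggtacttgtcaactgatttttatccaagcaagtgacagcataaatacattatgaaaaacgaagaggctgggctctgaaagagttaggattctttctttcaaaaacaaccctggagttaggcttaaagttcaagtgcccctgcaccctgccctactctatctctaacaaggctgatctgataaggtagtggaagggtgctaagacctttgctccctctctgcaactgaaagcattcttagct
Ass1 (chr2:31470020-31470319, + strand): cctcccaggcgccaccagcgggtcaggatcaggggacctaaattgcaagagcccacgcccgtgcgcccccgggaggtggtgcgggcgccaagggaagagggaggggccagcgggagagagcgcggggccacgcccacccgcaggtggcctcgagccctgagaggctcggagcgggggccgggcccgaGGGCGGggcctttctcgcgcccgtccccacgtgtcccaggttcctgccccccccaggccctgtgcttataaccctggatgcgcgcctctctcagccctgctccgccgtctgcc
Glul (chr1:153899679-153899978, + strand): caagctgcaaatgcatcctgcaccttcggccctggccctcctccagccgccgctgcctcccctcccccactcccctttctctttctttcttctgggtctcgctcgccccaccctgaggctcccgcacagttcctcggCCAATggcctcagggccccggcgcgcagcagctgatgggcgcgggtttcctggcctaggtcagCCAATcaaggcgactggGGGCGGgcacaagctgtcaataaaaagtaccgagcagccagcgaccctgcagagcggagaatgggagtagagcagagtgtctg
Oat (chr7:132576349-132576648, - strand): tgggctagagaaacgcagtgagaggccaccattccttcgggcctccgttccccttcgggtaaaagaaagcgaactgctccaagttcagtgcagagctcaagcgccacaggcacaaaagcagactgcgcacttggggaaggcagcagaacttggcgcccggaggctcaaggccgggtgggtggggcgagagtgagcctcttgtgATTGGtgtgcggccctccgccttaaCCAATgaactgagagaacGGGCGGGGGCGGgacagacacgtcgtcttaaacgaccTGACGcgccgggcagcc
No matches overlap in these regions. Otc had no match to any of the 7 motifs, and Ass1 had a single GC box. Both pericentral genes had 2 CCAAT boxes and at least 1 GC box, and Oat also had a CRE half-site. A GC box was present in 5 of the 6 members with a region, against 35.7% of all 32851 regions in the table, and a CCAAT box in 2 of 6, against 37.4%. The CRE half-site was in 2 of 6 members (Nags and Oat, 20.8% of all regions) and the TCF/LEF core in 1 (Nags, 16.0% of all regions). No member matched the TATA box, the C/EBP palindrome or the glucocorticoid half-site, which were in 13.6%, 10.8% and 19.0% of all regions. A match describes letters in the window and does not show that a factor binds.

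All 10 members were abundant enough to be tested, with 1758 counts or more in every library. Levels were compared between genes as counts scaled for exon length and library size (RPKM), with the merged exons of each gene as its length. Ass1 had the highest mean level over the 8 livers, 915.4 RPKM, followed by Arg1 with 548.7 and Cps1 with 470.5. Glul came next with 254.1 RPKM, then Oat with 146.4, Asl with 118.8 and Otc with 112.5. The lowest were Gls2 with 68.94 RPKM, the ornithine carrier Slc25a15 with 61.88 and Nags with 23.93. The enzyme that makes the activator of Cps1 was thus listed 38.2-fold below the highest member.

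Several neighbours in this order could not be separated. Ass1 was above Arg1 in all 8 livers, although their ranges over the livers of each genotype overlapped. Arg1 was above Cps1 in 6 of 8 livers, and Gls2 above Slc25a15 in 4 of 8. Otc was above Gls2, and Slc25a15 above Nags, with no overlap of their ranges in either genotype on the merged-exon length. The length used changed both the spread and the order of the levels. With the median transcript length of each gene the highest member was 115-fold above the lowest. Glul, at 1535 RPKM on that length, was then above Cps1 at 470.5, and Gls2, at 293.8, was above Oat at 277.9 and Otc at 179.5. Ass1 stayed the highest and Nags the lowest member with either length.

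None of the 10 members passed the test between genotypes. A gene was called when its adjusted p was under 0.10 in edgeR's quasi-likelihood test with Benjamini-Hochberg adjustment and its fold change was over 1.3, a rule that 1.17% of the 14866 tested genes passed. DESeq2 also called 0 of 10 members, where it called 4.04% of the genes it tested (1.92% higher and 2.12% lower). At an unadjusted edgeR p under 0.05 there was 1 member, Otc, against 13.9% of all tested genes. The log2 difference, Inpp4b-/- minus WT, was above 0 for 3 members (Otc, Ass1 and Gls2) and below 0 for 7, with a median of -0.15 over the members and 0.00 over all tested genes. No member had CPM values that separated the genotypes, a state reached by 8.72% of tested genes. The share of all counts taken by the 10 members together was 0.723% to 1.18% in WT and 0.566% to 1.12% in Inpp4b-/-.

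**Figure D1:**
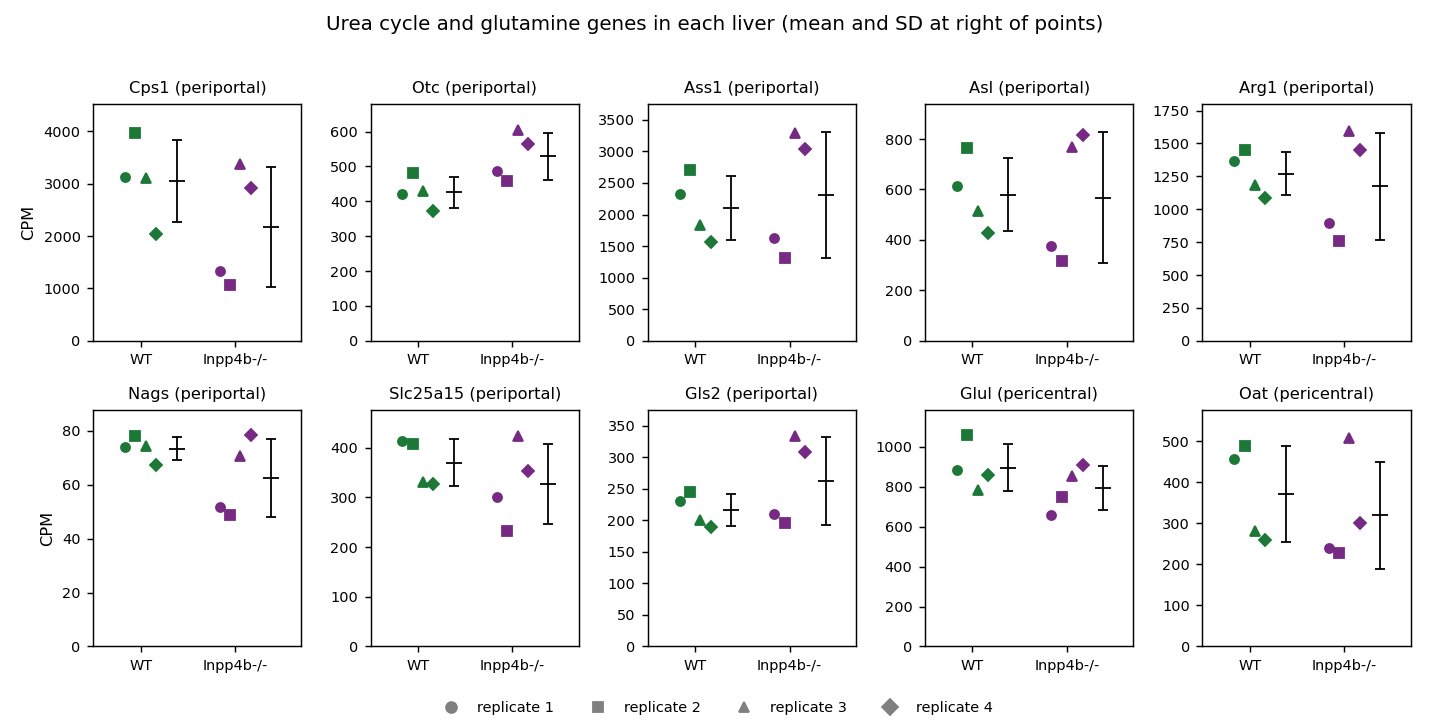
CPM (vertical axis, from 0) of each member in each of the 4 WT and 4 Inpp4b-/- livers, with a symbol for each replicate number and the mean and SD of 4 libraries at the right. In every panel Inpp4b-/- replicates 1 and 2 are the lowest of the Inpp4b-/- points, and the genotypes overlap.

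Carbamoyl phosphate synthesis opens the cycle. Cps1 (chromosome 1, 67123026 to 67231259), the mitochondrial enzyme that commits ammonia to urea, was at 3124, 3960, 3101 and 2043 CPM in WT livers 1 to 4 and at 1329, 1063, 3366 and 2922 CPM in Inpp4b-/- livers 1 to 4. Inpp4b-/- livers 1 and 2 lay below every WT liver, while the other two lay inside the WT range. The log2 difference of -0.49 (SE 0.36, 95% interval -1.30 to 0.31) did not pass the test (edgeR adjusted p = 0.582), and it was -0.27 without Inpp4b-/- replicate 2 and -0.79 without replicate 3. Nags (chromosome 11, 102145513 to 102149477), which makes N-acetylglutamate, the obligate activator of the Cps1 enzyme, was at 73.9, 77.9, 74.3 and 67.5 CPM in WT and at 51.9, 48.8, 70.8 and 78.3 CPM in Inpp4b-/-. The same libraries were below all WT livers, and Inpp4b-/- liver 4 was above them all, with a log2 difference of -0.23 (SE 0.15, edgeR adjusted p = 0.525). Nags shares 443 bases of exon with the antisense gene Gm11586, which had at most 17 counts in any library.

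Ornithine enters the mitochondrion through a carrier and is joined there to carbamoyl phosphate. Slc25a15 (chromosome 8, 22375551 to 22398597), the mitochondrial ornithine carrier, was at 413.8, 407.6, 330.1 and 327.5 CPM in WT and at 299.6, 232.2, 423.1 and 352.9 CPM in Inpp4b-/-. Its log2 difference was -0.18 (SE 0.17, edgeR adjusted p = 0.694), and -0.04 without Inpp4b-/- replicate 2 or -0.33 without replicate 3. Otc (chromosome X, 10252305 to 10321024), ornithine transcarbamylase, was at 420.3, 480.6, 429.1 and 371.6 CPM in WT and at 487.3, 457.7, 605.3 and 564.8 CPM in Inpp4b-/-. For Otc, Inpp4b-/- livers 1, 3 and 4 were above every WT liver, and liver 2 was inside the WT range. The log2 difference was 0.31 (SE 0.12, 95% interval 0.05 to 0.58), or 1.24-fold, with an unadjusted edgeR p of 0.0239 and an adjusted p of 0.279. The exact permutation p was 0.0571 (two-sided, n = 4 and 4), where 0.029 is the smallest that 70 arrangements can give.

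The cytosolic steps make and split argininosuccinate and release urea. Ass1 (chromosome 2, 31470207 to 31520672), argininosuccinate synthase, was at 2322, 2709, 1834 and 1562 CPM in WT and at 1621, 1307, 3286 and 3039 CPM in Inpp4b-/-. Inpp4b-/- livers 3 and 4 were above every WT liver, liver 2 was below them all and liver 1 was inside their range, so that the mean log2 difference of 0.14 (SE 0.30, 95% interval -0.53 to 0.80) describes neither pair. It turned to -0.08 and -0.02 without Inpp4b-/- replicate 3 or 4 (edgeR adjusted p = 0.877 with all libraries).

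Asl (chromosome 5, 130011258 to 130029247), argininosuccinate lyase, was at 612.9, 763.6, 515.1 and 427.7 CPM in WT and at 374.8, 315.9, 767.3 and 814.3 CPM in Inpp4b-/-. The Inpp4b-/- values fell on both sides of the whole WT range, with a log2 difference of -0.03 (SE 0.31, 95% interval -0.73 to 0.67, edgeR adjusted p = 0.975), which was 0.13, 0.17 and 0.12 without Inpp4b-/- replicate 1, Inpp4b-/- replicate 2 or WT replicate 2. Arg1 (chromosome 10, 24915221 to 24927484), the arginase that releases urea, was at 1366, 1449, 1181 and 1087 CPM in WT and at 897.6, 758.4, 1593 and 1449 CPM in Inpp4b-/-. Its log2 difference of -0.11 (SE 0.23, edgeR adjusted p = 0.862) was 0.05 without Inpp4b-/- replicate 2.

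Glutamine is taken apart at the portal end and made at the central end. Gls2 (chromosome 10, 128194457 to 128210004), the liver glutaminase, was at 230.2, 245.0, 201.4 and 189.3 CPM in WT and at 210.6, 196.1, 334.2 and 309.2 CPM in Inpp4b-/-. Inpp4b-/- livers 3 and 4 were above every WT liver, with a log2 difference of 0.28 (SE 0.18, 95% interval -0.12 to 0.68, edgeR adjusted p = 0.524). Gls2 shares 97 bases of exon with Spryd4 on the opposite strand, which had up to 1063 counts, and whether the counting used strand is not given in the sources used here.

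Glul (chromosome 1, 153899944 to 153909723), glutamine synthetase, was at 886.0, 1058, 785.0 and 856.6 CPM in WT and at 659.1, 748.3, 853.4 and 909.4 CPM in Inpp4b-/-. Inpp4b-/- livers 1 and 2 lay below every WT liver, with a log2 difference of -0.18 (SE 0.13, 95% interval -0.47 to 0.11, edgeR adjusted p = 0.586). Oat (chromosome 7, 132557478 to 132576398), ornithine aminotransferase, which links ornithine to glutamate and proline, was at 455.9, 488.9, 282.4 and 259.0 CPM in WT and at 241.1, 227.4, 508.6 and 301.5 CPM in Inpp4b-/-. Here the WT livers fell into a higher and a lower pair, while Inpp4b-/- liver 3 stood above the rest of its genotype. The log2 difference was -0.22 (SE 0.29, 95% interval -0.86 to 0.43, edgeR adjusted p = 0.78), or -0.07 without WT replicate 2 and -0.53 without Inpp4b-/- replicate 3.

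**Figure D2:**
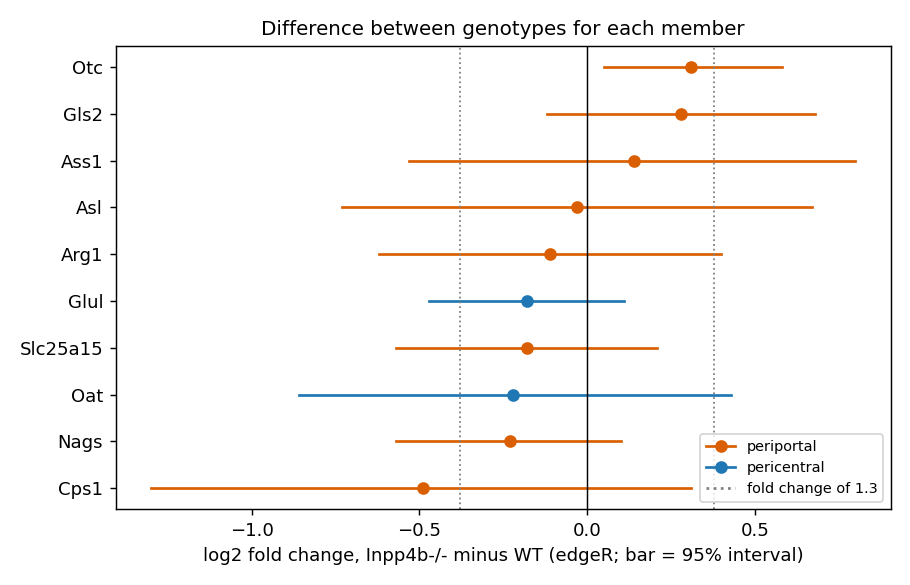
Log2 fold change of each member, Inpp4b-/- minus WT, with its 95% interval from edgeR over 8 libraries (horizontal axis), periportal and pericentral members in different colours and dotted lines at a fold change of 1.3. Otc is the member whose interval (0.05 to 0.58) does not reach 0, and the widest interval is that of Cps1 (-1.30 to 0.31).

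The members varied widely among the Inpp4b-/- livers, and in step. Within Inpp4b-/-, replicates 1 and 2 were the lowest of the genotype for 10 of 10 members, periportal and pericentral alike, a pattern shown by 23.0% of all tested genes. With library totals in place of the scaling of trimmed means (TMM), it was again 10 of 10, against 13.3% of tested genes. Replicate 2 was the lowest Inpp4b-/- liver for 9 members and replicate 1 for Glul. Replicate 3 was the highest for 7 members and replicate 4 for Asl, Nags and Glul. This pattern was noticed in the values and is given as a description, with no test.

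The size of the spread differed between members. The highest Inpp4b-/- liver was above the lowest by 3.17-fold for Cps1, 2.58-fold for Asl, 2.51-fold for Ass1, 2.24-fold for Oat and 2.10-fold for Arg1, but by 1.38-fold for Glul and 1.32-fold for Otc. The SD of log2 CPM among Inpp4b-/- livers was 0.82 for Cps1, larger than that of 98.2% of the 11693 tested genes averaging 50 counts or more. Over the 10 members its median was 0.45 in Inpp4b-/- and 0.19 in WT, where the medians over those 11693 genes were 0.18 and 0.21. The cytosolic steps Asl, Ass1 and Arg1 had SDs of 0.70, 0.66 and 0.52 in Inpp4b-/-, whereas Otc, the mitochondrial step between them and Cps1, had 0.19 and Glul 0.21.

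WT livers had an order of their own. WT replicate 2 was the highest WT liver for 9 of 10 members, against 26.2% of tested genes, and WT replicate 4 the lowest for 9 of 10, against 30.0%. The exceptions were Slc25a15, highest in replicate 1, and Glul, lowest in replicate 3. For Cps1 the highest WT liver was 1.94-fold above the lowest, and for Nags 1.15-fold.

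**Figure D3:**
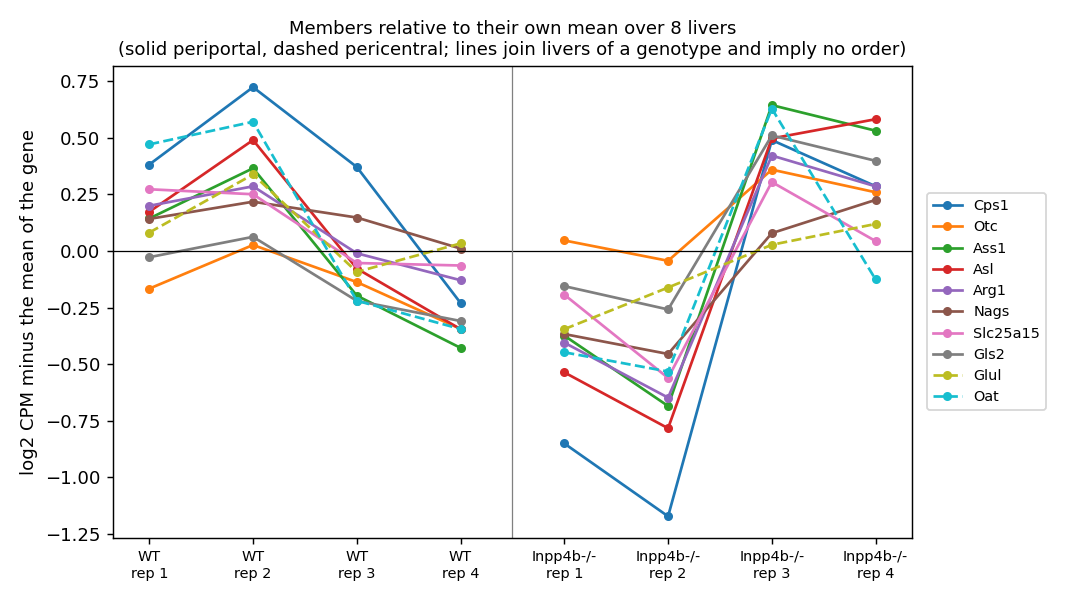
Log2 CPM of each member in each liver minus the mean of that gene over the 8 livers (vertical axis), with solid lines for periportal and dashed lines for pericentral members. Inpp4b-/- replicates 1 and 2 are the low points of their genotype for all 10 members, and WT replicate 2 is the highest WT liver for 9 of 10.

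Several measures of the libraries were compared with this order. Inpp4b-/- replicates 1 to 4 held 35104982, 36015519, 32738435 and 36662531 counts, with TMM factors of 1.027, 1.057, 0.950 and 0.972. The 10 most abundant genes took 17.86%, 16.45%, 17.99% and 17.77% of their counts. Hepatocyte markers summed to 97600, 83300, 103000 and 87400 CPM, and Kupffer cell markers to 134, 104, 162 and 83.7 CPM. The TMM factors set replicates 1 and 2 apart and ran opposite to the members' usual order, with replicate 2 highest and replicate 3 lowest, while the members kept their pattern with library totals. Bile duct markers (30.6, 30.7, 39.9 and 41.5 CPM), neighbouring organ markers (126, 127, 166 and 158 CPM) and lymphocyte markers (9.55, 8.38, 6.89 and 6.26 CPM) also set these libraries apart, the last in the opposite direction. The counts of all genes paired the libraries in the same way, since the chi-square per degree of freedom was 32.0 between replicates 1 and 2 and 50.7 between 3 and 4, against 63.2 to 94.7 for the other Inpp4b-/- pairs. The part of these measures in the members' pattern was not tested.

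The genes with the most similar profiles were sought among the 11693 genes, by the root mean square difference of log2 CPM over 8 livers after each gene was centred on its own mean. Nearest to Cps1 were Por (0.20), the reductase that supplies electrons to cytochromes P450, the alanine aminotransferase Gpt2 (0.21) and the trehalase gene Treh (0.21), where the profile of Cps1 had a root mean square of 0.64. Nearest to Gls2 were Rgl2 (0.099), mt-Nd4 (0.11) and Csnk1g3 (0.11), and nearest to Glul were Pym1 (0.062), Aprt (0.063) and Tmem204 (0.071). None of these 9 genes was called.

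The balance of the lobule's ends did not separate the genotypes. The mean log2 CPM of the 8 periportal members minus that of the 2 pericentral members was -0.07, -0.09, 0.20 and -0.01 in WT and 0.11, -0.16, 0.15 and 0.40 in Inpp4b-/-. The means were 0.01 ± 0.13 and 0.12 ± 0.23 (SD, n = 4 each), and the ranges overlapped. The difference of 0.11 was 0.08 with Glul alone as the pericentral member and 0.14 with Oat alone, and 0.02 without Inpp4b-/- replicate 4. Oat and Glul themselves did not keep a fixed ratio, since log2 Oat to Glul ran from -1.73 to -0.96 in WT and from -1.72 to -0.75 in Inpp4b-/-.

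Ratios between members within a library cancel only what the members share in equal size. The spread among Inpp4b-/- livers differed between members, so a ratio can keep part of the members' pattern. Among the 45 pairs of members, 11 had a ratio whose values did not overlap between genotypes, while 8.0% of all pairs of tested genes did so. Of these 11 pairs, 9 include Otc or Gls2, and pairs that share a gene are not independent. These pairs were picked after the values were seen and have no test. Some of them still set Inpp4b-/- replicates 1 and 2 apart. Log2 Otc to Arg1 was -0.88 and -0.73 in these replicates and -1.4 and -1.36 in replicates 3 and 4. Log2 Gls2 to Slc25a15 did not set them apart, at -0.51, -0.24, -0.34 and -0.19 in Inpp4b-/- replicates 1 to 4.

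Ass1 to Cps1, as log2 of the CPM ratio, was -0.43, -0.55, -0.76 and -0.39 in WT and 0.29, 0.30, -0.03 and 0.06 in Inpp4b-/-. Ass1 transcripts were thus relatively more abundant in each Inpp4b-/- liver, by 1.60-fold in the mean, in the low pair as in the high pair. Gls2 to Glul, the glutaminase against the synthetase, was -1.94, -2.11, -1.96 and -2.18 in WT and -1.65, -1.93, -1.35 and -1.56 in Inpp4b-/-, a mean ratio 1.34-fold higher in Inpp4b-/-. WT replicate 1 and Inpp4b-/- replicate 2 lay next to each other in that ratio, so the separation was narrow. Otc to Nags was 2.51, 2.62, 2.53 and 2.46 in WT and 3.23, 3.23, 3.10 and 2.85 in Inpp4b-/-, 1.48-fold higher in the mean. Otc to its substrate carrier Slc25a15 was 0.02 to 0.38 in WT and 0.52 to 0.98 in Inpp4b-/-, and Gls2 to Nags was 1.44 to 1.65 in WT and 1.98 to 2.24 in Inpp4b-/-. The ratio of Otc to Cps1 differed by more, 1.91-fold in the mean, but its ranges of -3.04 to -2.46 and -2.47 to -1.22 overlapped slightly.

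**Figure D4:**
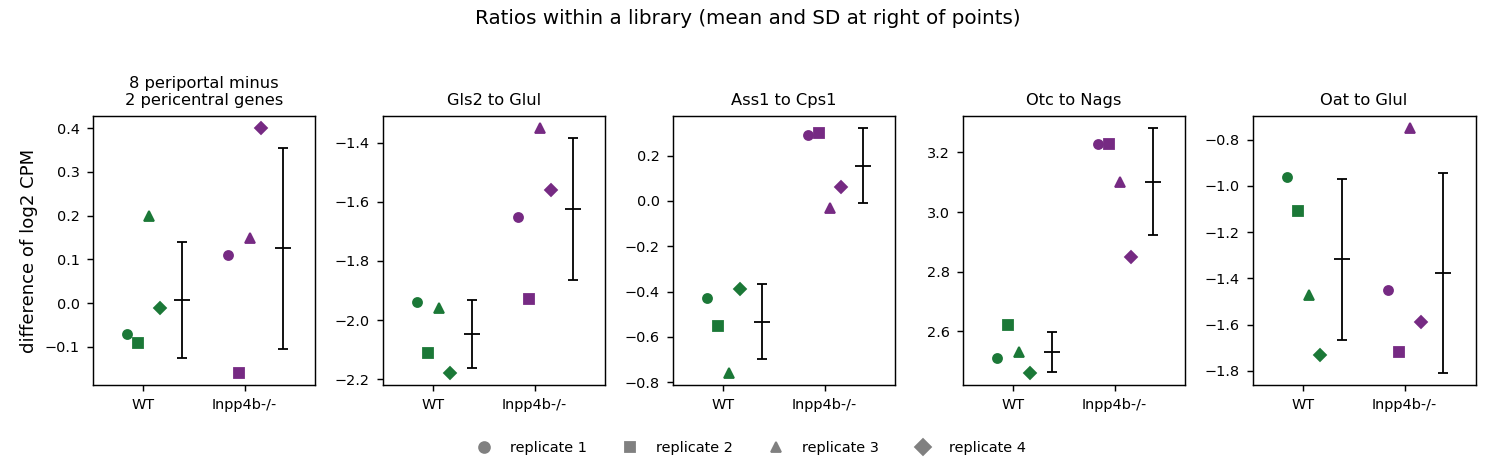
Differences of log2 CPM within each library (vertical axes, which differ in range) for the periportal against the pericentral members and for 4 pairs of members, with a symbol for each replicate number and the mean and SD of 4 libraries. Gls2 to Glul, Ass1 to Cps1 and Otc to Nags separate the genotypes, whereas the zone difference and Oat to Glul overlap.

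Around the members, 16 lists of genes on neighbouring steps, zonation and cell types held 184 genes of the table, of which 181 were tested and 3 were called. The called genes were Agmat (higher in Inpp4b-/-), Srm (lower) and Hba-a2 (lower), against 0.552% of tested genes called higher and 0.619% called lower. DESeq2 called 14 genes of these lists, where it called 4.04% of all the genes it tested. The 3 calls became 7 without WT replicate 2 and 4 without WT replicate 4, and 0 without any one of the other 6 libraries.

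Agmat and Srm belong to the use of arginine and ornithine outside the urea cycle, a list of 17 genes with 16 tested, 8 above 0 and 8 below, with a median log2 difference of -0.05. Agmat (chromosome 4, 141746672 to 141759263), which encodes agmatinase, was at 240.0, 250.6, 257.5 and 177.9 CPM in WT and at 335.5, 338.2, 357.1 and 344.9 CPM in Inpp4b-/-. All 4 Inpp4b-/- livers were above all WT livers, and replicates 1 and 2 were close to the others, unlike in the members. It rose by 0.57 on the log2 scale (SE 0.12, 1.49-fold, edgeR adjusted p = 0.0804, 0.00211 to 0.246 over the alternatives).

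Srm, spermidine synthase, was at 58.5, 39.8, 53.7 and 52.9 CPM in WT and at 31.2, 31.9, 35.3 and 37.9 CPM in Inpp4b-/-. Its level fell by 0.59 on the log2 scale (SE 0.13, edgeR adjusted p = 0.0869, 0.00512 to 0.244 over the alternatives). Of the other genes of polyamine synthesis and breakdown on the list, chosen after their values were seen, Amd1 and Odc1 had log2 differences of -0.46 and -0.48 (edgeR adjusted p = 0.154 and 0.265), whereas Sms and Sat1 had 0.29 and 0.06 (edgeR adjusted p = 0.556 and 0.83). Amd1 was called lower by DESeq2 (adjusted p = 0.0415). Gamt, which makes creatine from an arginine-derived precursor, had a log2 difference of 0.41 (edgeR adjusted p = 0.268).

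The suppliers and partners of the cycle, which feed it nitrogen and carbon, had 0 of 14 tested genes called by edgeR, 9 above 0 and 5 below, with a median log2 difference of 0.05. Glud1, which releases ammonia from glutamate, was at 1230 ± 34.7 CPM in WT and 1330 ± 211 in Inpp4b-/- (SD, n = 4 each), and Got2, which passes nitrogen between glutamate and aspartate, at 509.7 ± 28.9 and 582.5 ± 63.9. The alanine aminotransferases Gpt and Gpt2 had log2 differences of 0.06 and -0.36, neither called. In this list 9 of 14 tested genes had Inpp4b-/- replicates 1 and 2 as the lowest of their genotype, against 23.0% of all tested genes. Cad, which makes carbamoyl phosphate for pyrimidines, and Slc25a12, an aspartate and glutamate carrier, were called lower by DESeq2 (log2 differences of -0.70 and -0.46, adjusted p = 0.0331 and 0.0377) but not by edgeR (adjusted p = 0.164 for each). These were named after their values were seen.

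Among genes of glutamine, glutamate and proline metabolism, edgeR called 0 of 19 and DESeq2 called 1 lower (Asns, asparagine synthetase, adjusted p = 0.0897), with 8 above 0, 11 below and a median log2 difference of -0.04. Gclc, which starts glutathione synthesis from glutamate, was at 193.1, 247.7, 304.8 and 277.0 CPM in WT and at 556.0, 473.9, 220.1 and 199.7 CPM in Inpp4b-/-. Its values were high in Inpp4b-/- replicates 1 and 2 and in the WT range in the other two, the reverse of the members' order. Prodh2, a hydroxyproline dehydrogenase, and Nit2, an omega-amidase, had log2 differences of 0.32 and 0.37 (edgeR adjusted p = 0.253 and 0.154).

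Amino acid and ammonia transporters had 0 of 15 tested genes called by edgeR, 5 above 0 and 10 below, and a median log2 difference of -0.30. DESeq2 called 1 of them lower, the neutral amino acid transporter Slc1a5, at 2.10 to 4.55 CPM in WT and 0.44 to 2.03 in Inpp4b-/- (DESeq2 log2 difference -1.32, adjusted p = 0.0926). The most abundant, Slc38a3 and Slc38a4, which carry glutamine and other neutral amino acids, had log2 differences of 0.17 and 0.20 (edgeR adjusted p = 0.598 and 0.649). The amino acid breakdown enzymes had 0 of 26 called by edgeR and 2 called higher by DESeq2 (Uroc1 and Amdhd1, both of histidine breakdown), 20 above 0 and 6 below, with a median of 0.15. In that list 17 of 26 genes had Inpp4b-/- replicates 1 and 2 as the lowest of their genotype, against 23.0% of all tested genes. The same held for 5 of 15 transporters, 4 of 19 genes of glutamine, glutamate and proline metabolism, and 5 of 16 arginine and ornithine genes. Tat, tyrosine aminotransferase, was at 2830, 1114, 1047 and 1068 CPM in WT and at 830.9, 362.1, 795.4 and 882.4 CPM in Inpp4b-/-, without overlap but with WT replicate 1 far above the rest (log2 difference -1.08, SE 0.38, edgeR adjusted p = 0.254, and -0.58 without that library). Uroc1, urocanase of histidine breakdown, named after its values were seen, was at 407.9, 456.8, 380.4 and 358.4 CPM in WT and at 538.7, 490.2, 603.9 and 587.2 CPM in Inpp4b-/-. It lay just outside the call (log2 difference 0.47, SE 0.11, edgeR adjusted p = 0.105) and was called by DESeq2 (adjusted p = 0.00626).

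**Figure D5:**
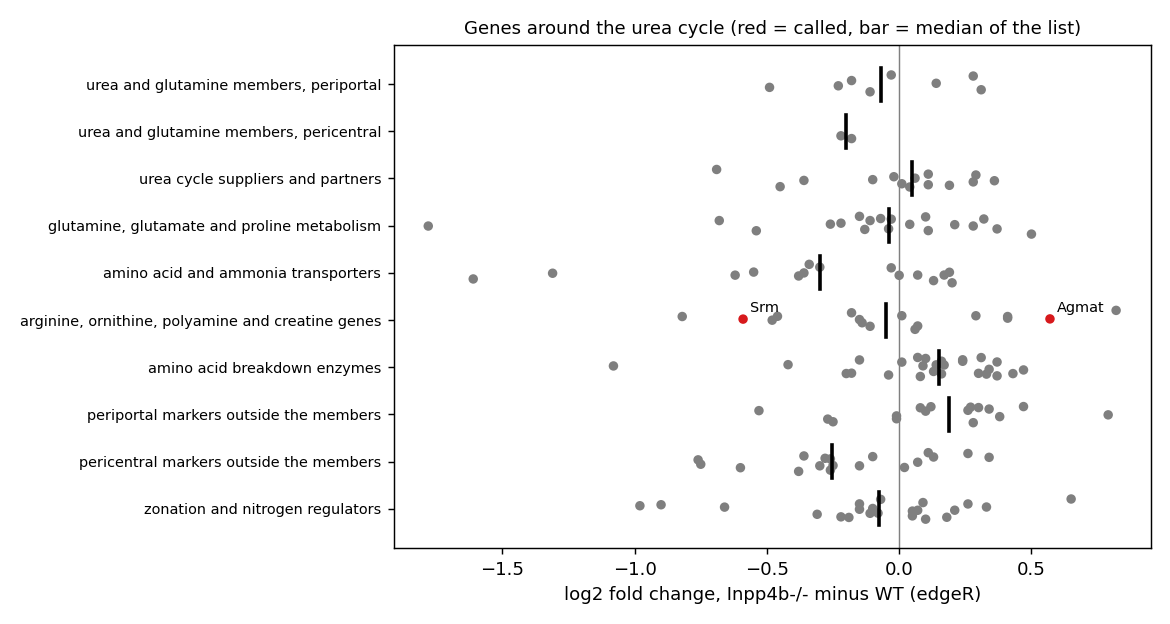
Log2 fold change, Inpp4b-/- minus WT, of each tested gene in the members and in the lists around them (horizontal axis, 1 list a row), with the median of each list as a bar and called genes in red. Agmat and Srm are the called genes shown, and both lie in the list of arginine, ornithine, polyamine and creatine genes.

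Zone markers outside the members gave 0 edgeR calls in 16 periportal and 18 pericentral genes, and DESeq2 called 1 of them, the periportal Uroc1 given above. The periportal markers had 11 above 0 and 5 below (median log2 difference 0.19), and the pericentral markers 6 above and 12 below (median -0.26), beside 0.00 over all tested genes. Pck1, the gluconeogenic entry enzyme, and Fbp1, a later step of that pathway, had log2 differences of -0.53 and 0.26 (edgeR adjusted p = 0.534 and 0.404), and that of Pck1 was -0.14 without WT replicate 1. The pericentral cytochromes Cyp2e1 and Cyp1a2 had -0.15 and -0.25 (edgeR adjusted p = 0.738 and 0.694). Rgn, a pericentral marker that lay between them in mean RPKM, had 0.07 (edgeR adjusted p = 0.809). Inpp4b-/- replicates 1 and 2 were the lowest of their genotype for 4 of 16 periportal and 9 of 18 pericentral markers, against 23.0% of tested genes. The periportal markers outside the members were thus near the share of all tested genes, and the pericentral markers above it. Among targets of the Wnt signal that marks the central vein, named after their values were seen, Axin2 and Tbx3 had log2 differences of -0.76 and -0.75 (edgeR adjusted p = 0.277 and 0.311). Sp5, Znrf3 and Rnf43 had -0.60, -0.30 and -0.26 (edgeR adjusted p = 0.384, 0.374 and 0.777), whereas Lgr5, Nkd1 and Notum had 0.34, 0.11 and 0.02 (edgeR adjusted p = 0.663, 0.896 and 0.949).

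Regulators of zonation and nitrogen metabolism gave 0 edgeR calls of 22 and 1 DESeq2 call (Wnt2, lower, adjusted p = 0.0763), with 10 above 0, 12 below and a median log2 difference of -0.08. Cebpb, a transcription factor of the amino acid and glucocorticoid response, was at 256.5, 104.9, 87.8 and 201.8 CPM in WT and at 82.4, 81.4, 123.7 and 124.7 CPM in Inpp4b-/- (log2 difference -0.66, edgeR adjusted p = 0.40, and -0.35 without WT replicate 1). Hnf4a, a master regulator of hepatocytes, and Gcgr, the glucagon receptor, had -0.19 and 0.18 (edgeR adjusted p = 0.672 and 0.38). Gcgr was higher in each Inpp4b-/- liver than in any WT liver, at 337.8 to 387.5 against 295.0 to 332.1 CPM.

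The marker lists of other cells held 1 called gene, the alpha globin Hba-a2, which fell by 2.92 on the log2 scale (edgeR adjusted p = 0.057) from 0.81 to 5.09 CPM in WT to 0.24 to 0.58 in Inpp4b-/-. The near-identical Hba-a1 had a log2 difference of 0.85 (edgeR adjusted p = 0.443). How reads that fit both genes were counted was not tested, so the value of Hba-a2 is uncertain. The summed blood markers overlapped, at 114 to 431 CPM in WT and 208 to 346 in Inpp4b-/-. Kupffer cell markers were all 6 above 0 with none called, and summed to 43.1 to 120 CPM in WT and 83.7 to 162 in Inpp4b-/-. Sums for bile duct cells were 24.3 to 32.1 and 30.6 to 41.5 CPM, for lymphocytes 4.2 to 8.66 and 6.26 to 9.55, for endothelial cells 126 to 165 and 112 to 161, and for stellate cells 144 to 197 and 153 to 186. None of the genes in these lists was called by edgeR, while DESeq2 called the stellate marker Lrat, the bile duct marker Spp1 and the lymphocyte marker Cd79b higher (adjusted p = 0.031, 0.036 and 0.0586). Hepatocyte markers gave 0 edgeR calls of 7, and the markers of neighbouring organs, of which 3 of 8 were in the table, gave 0 of 2. Their part in the members' values was not tested.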

How the data were processed

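Liver RNA of 4 HFD WT and 4 HFD Inpp4b-/- males was sequenced by the authors as 150-base paired-end reads, aligned to GRCm38 with HISAT2 and counted per gene with HTSeq. The deposited raw counts were used. Versions, annotation release and strand setting are not given in the sources used here, and a deposited normalized table was not used. Symbols, positions and exon lengths came from GENCODE M21, in which every identifier was found. The 14866 genes kept by filterByExpr were fitted with edgeR 4.0.16 (TMM, glmQLFit, glmQLFTest, no covariate), Benjamini-Hochberg adjusted over all of them. The fit was checked on simulated data whose changes were larger than the members' log2 differences. Recovery of changes of the members' size was not tested. The biological coefficient of variation was 0.251, and counting error was small at these depths. The labels name no batch, but their titles carry a number for each library. Inpp4b-/- replicates 1 to 4 were IN_1648, IN_1649, IN_1675 and IN_1678, and WT replicates 1 to 4 were WT_1694, WT_1695, WT_1696 and WT_1700. Inpp4b-/- replicates 1 and 2 have adjacent numbers, and all Inpp4b-/- numbers are below those of WT. What these numbers stand for is not given, and their part in the members' pattern was not tested. DESeq2 1.42.0, other scalings, filters and thresholds, the replicate number as a block and the omission of single libraries were alternatives. R 4.3.3 and Python 3.11.15 were used. Log2 CPM had a prior count of 2. Named genes were all members, Inpp4b, called list genes, up to 5 genes of a list with the highest mean RPKM, and the 3 nearest profiles of Cps1, Gls2 and Glul. Genes named as calls of DESeq2 alone, and further genes marked so, were chosen after their values were seen. Members and lists were chosen with earlier results of these data known.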

Additional observations from a re-analysis of the deposited data

Results flagged for a closer look

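In 128 groups of 4 libraries examined for the members, other genes of the lists and ratios, 6 had a highest or lowest library standing apart from the rest, where chance gives about 1 in 20 groups, or 6.4. Tat was at 2830 CPM in WT replicate 1, where the next WT liver had 1114, and at 362.1 CPM in Inpp4b-/- replicate 2, where the next had 795.4. WT replicate 4 was low for Slc38a4 (582.3 CPM, the next 885.7) and for Cyp1a2 (438.2 CPM, the next 865.8), and high for Amdhd1 (224.5 CPM, the next 169.2). The log2 ratio of Gls2 to Nags was 2.24 in Inpp4b-/- replicate 3 and 2.02 in the next Inpp4b-/- liver. None of these is a value of a member by itself.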

How the results depend on the processing

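No member was called under any of the 17 alternatives, and 164 of 170 member values kept their sign. The sign turned for Ass1 without Inpp4b-/- replicate 3 or 4 (-0.08 and -0.02, range -0.08 to 0.33 over left-out libraries), Asl without Inpp4b-/- replicate 1, Inpp4b-/- replicate 2 or WT replicate 2 (0.13, 0.17 and 0.12, range -0.25 to 0.17), and Arg1 without Inpp4b-/- replicate 2 (0.05, range -0.30 to 0.05). The members whose sign held ranged over left-out libraries from -0.79 to -0.27 for Cps1, 0.24 to 0.38 for Otc, -0.36 to -0.13 for Nags, -0.33 to -0.04 for Slc25a15, 0.14 to 0.40 for Gls2, -0.25 to -0.10 for Glul and -0.53 to -0.07 for Oat. Outside the members, Gpt changed sign without Inpp4b-/- replicate 3, Inpp4b-/- replicate 4 or WT replicate 4 (-0.08, -0.02 and -0.06, range -0.08 to 0.17), as did the differences near 0 of Sat1 (-0.01 to 0.15), Nkd1 (-0.03 to 0.44) and Notum (-0.05 to 0.08, with -0.04 without Inpp4b-/- replicate 3). Over all genes the 174 calls became 688 with DESeq2, 71 at an adjusted p under 0.05, and 53 to 345 when 1 library was left out. Those of the lists, 3, became 14 with DESeq2, 0 at an adjusted p under 0.05, and 0 to 7 when 1 library was left out. The ratio of the highest to the lowest level, 38.2, was 115 with the median transcript length. The cause was not tested. The zone difference stayed above 0 under the alternatives run.

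Replicate numbers are shared between genotypes, but same-numbered libraries did not deviate together (r of -0.17 to -0.01 over tested genes), so they share only a number. Under the replicate block edgeR called 26 genes of all, 0 of the lists and 0 members. No sample correlated best with its own number.

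Depth was ample for the members, at 1758 counts or more. With 4 animals a genotype and a spread such as that of Cps1, each member's interval still holds changes past the fold of 1.3.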
